A study of Mus musculus with 27 samples.

Results

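The genes described here are products of the interferon-gamma (IFN-γ) response: *Ubd*, the guanylate binding proteins *Gbp2*, *Gbp3* and *Gbp6*, the immunity-related GTPases *Igtp*, *Iigp1* and *Irgm*, the transcription factor *Irf1* and the signalling inhibitor *Socs1*. The 9 genes were chosen by name, through the gene symbol that the array's table gives each probe, with their differences between genotypes on these arrays already known. Of the 9, 8 had a probe, with 16 probes among the 45281 of the array, and 7 were detected well enough to be tested. The values of *Mbd2*-/- against wild type (WT) cells are therefore given for these genes as a description. Counts of those past the limits of the fit over all genes are given beside the share of all genes, as no evidence about them, and tests are read for the differences between cell types and for other genes of the pathway. RNA came from monocytes (CD45+Ly6G-SiglecF-CD11b+Ly6C+), macrophages (CD11b+Ly6C-MHC-II+F4/80+) and type 1 conventional dendritic cells (cDC1s, CD11b-CD11c+CD103+) sorted from the colon lamina propria of adult C57BL/6 mice that drank 2% dextran sulfate sodium (DSS), which injures the colon lining and causes colitis. All mice received DSS, so no untreated colon is among the arrays. *Mbd2*-/- mice lack the methyl-CpG-binding protein Mbd2 in every cell, and WT mice were their co-housed littermates. Monocytes and macrophages were each measured on 5 arrays per genotype, and cDC1s on 2 WT and 3 *Mbd2*-/- arrays. Each array held the pooled RNA of 1 to 5 mice by the deposited record. The paper's methods give a wider range of pool sizes. The labels do not say which arrays share mice or a day, so the p-values measure the spread between these arrays.

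IFN-γ binds a receptor of IFNGR1 and IFNGR2 and activates the kinases JAK1 and JAK2. The signal acts on GAS elements in promoters and induces IRF1, which binds interferon-stimulated response elements (ISREs) of later genes. Guanylate binding proteins and immunity-related GTPases are large GTPases that gather on the vacuoles of intracellular bacteria and parasites. *Ubd* encodes FAT10, a ubiquitin-like protein that marks proteins for the proteasome. SOCS1 blocks JAK activity and ends the signal. In the colon, phagocytes and dendritic cells meet IFN-γ from lymphocytes during inflammation.

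To show what the start sites of these genes share, the promoter sequences of RefSeq (GRCm38.p6, 250 bases before and 50 after each start site) were searched on both strands for the GAS letters TTCNNNGAA and for an ISRE spelled as GAAA, any 2 bases and GAAA. *Iigp1* has a RefSeq entry but its promoter was left out, and *Irgm* had no RefSeq match, so the shares below do not cover them. Promoters of 7 of the 9 genes and of *Irgm1* were read, and *Gbp6* was reached through its accession, which RefSeq now names *Gbp7*. Of these 7 genes, 5 had at least 1 ISRE match, where 3.44% of 32841 promoters had one. A GAS match stood in 3 of the 7, against 8.3% of all promoters. *Igtp*, *Gbp6* and *Ubd* are printed because they carry both motifs, most matches and no match, and *Gbp2*, *Irf1* and *Socs1* because they represent the 3 other arrangements. Capitals mark the matches.
Ubd, chr17:37193642-37193941, plus strand: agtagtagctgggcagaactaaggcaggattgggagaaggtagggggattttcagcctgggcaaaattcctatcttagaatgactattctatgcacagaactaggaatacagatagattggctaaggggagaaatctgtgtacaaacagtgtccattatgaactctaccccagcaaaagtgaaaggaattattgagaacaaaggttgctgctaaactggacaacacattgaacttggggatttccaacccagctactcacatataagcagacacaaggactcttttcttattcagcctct
Igtp, chr11:58199306-58199605, plus strand: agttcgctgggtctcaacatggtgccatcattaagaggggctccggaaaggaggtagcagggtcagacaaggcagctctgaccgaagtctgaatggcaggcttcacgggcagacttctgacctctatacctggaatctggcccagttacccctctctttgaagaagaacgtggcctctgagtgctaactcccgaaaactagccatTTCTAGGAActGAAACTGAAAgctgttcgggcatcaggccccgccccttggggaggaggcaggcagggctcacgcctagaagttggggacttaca
Gbp6, chr3:142530086-142530385, plus strand: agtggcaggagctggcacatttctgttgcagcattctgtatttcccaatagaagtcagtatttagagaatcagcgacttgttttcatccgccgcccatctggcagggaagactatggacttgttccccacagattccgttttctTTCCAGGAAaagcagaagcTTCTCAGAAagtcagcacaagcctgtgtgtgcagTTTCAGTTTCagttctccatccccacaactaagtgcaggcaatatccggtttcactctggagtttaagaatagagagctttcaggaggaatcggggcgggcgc
Gbp2, chr3:142620413-142620712, plus strand: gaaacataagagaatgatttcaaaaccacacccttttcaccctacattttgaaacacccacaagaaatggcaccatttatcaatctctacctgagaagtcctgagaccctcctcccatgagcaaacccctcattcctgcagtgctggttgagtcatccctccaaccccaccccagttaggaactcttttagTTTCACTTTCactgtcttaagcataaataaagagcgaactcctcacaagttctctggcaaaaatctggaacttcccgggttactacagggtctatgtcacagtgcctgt
Irf1, chr11:53769764-53770063, plus strand: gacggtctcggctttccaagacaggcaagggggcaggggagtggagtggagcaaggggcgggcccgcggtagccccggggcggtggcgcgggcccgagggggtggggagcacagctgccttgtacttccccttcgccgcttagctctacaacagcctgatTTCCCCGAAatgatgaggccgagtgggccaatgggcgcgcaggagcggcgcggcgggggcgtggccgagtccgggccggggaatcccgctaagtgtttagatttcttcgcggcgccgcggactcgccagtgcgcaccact
Socs1, chr16:10785487-10785786, minus strand: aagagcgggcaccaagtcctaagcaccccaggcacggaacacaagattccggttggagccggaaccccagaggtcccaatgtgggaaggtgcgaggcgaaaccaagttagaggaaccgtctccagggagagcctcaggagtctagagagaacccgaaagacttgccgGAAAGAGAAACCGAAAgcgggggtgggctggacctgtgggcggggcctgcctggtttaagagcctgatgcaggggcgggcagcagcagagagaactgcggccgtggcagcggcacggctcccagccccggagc

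In the *Igtp* promoter the GAS match lay at -45 to -37 and the ISRE match at -34 to -25 from the start site. The *Gbp6* promoter held GAS matches at -106 to -98 and at -87 to -79, and an ISRE match at -53 to -44. *Gbp2* had 1 ISRE match at -59 to -50. In *Socs1*, 2 ISRE matches overlapped between -83 and -68, and in *Irgm1* 2 overlapped between -30 and -15. The first of the 2 *Gbp3* promoters also held 2 overlapping ISRE matches. The first of the 2 *Irf1* promoters held a GAS match at -90 to -82, and the other held neither motif. The *Ubd* promoter held neither motif and no CpG, the dinucleotide whose methylation Mbd2 binds, and 5.42% of all promoters hold as few. The median promoter held 7 CpG, *Gbp2* had 2, *Gbp6* 8, *Igtp* 9, *Socs1* 18 and the first *Irf1* promoter 32. These matches are a description of the letters and were not set against binding or methylation data.

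**Figure D1:**
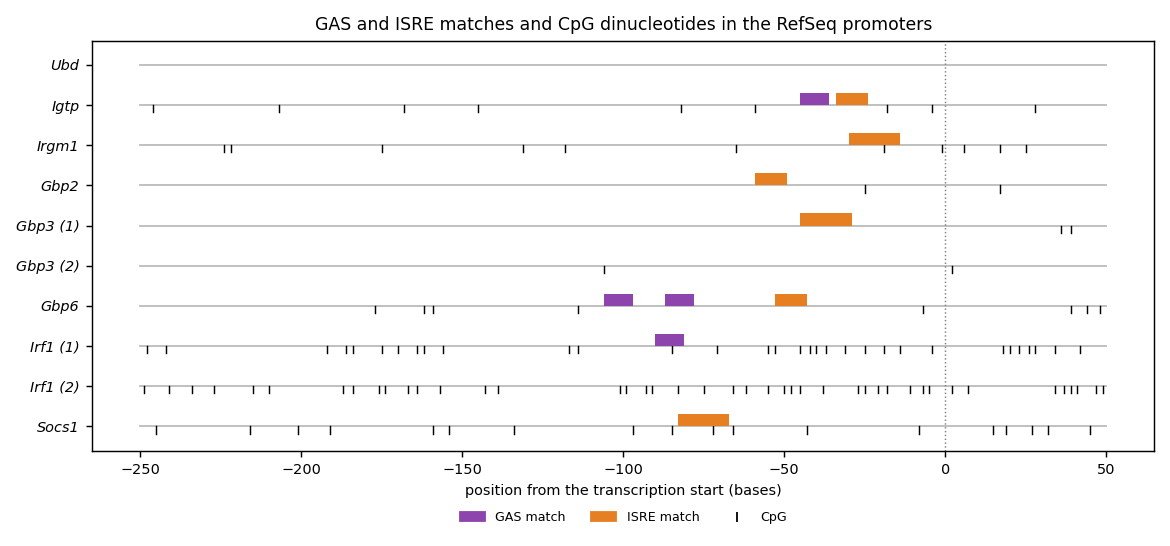
Position of GAS matches (purple), ISRE matches (orange) and CpG dinucleotides (black ticks) in 10 RefSeq promoters, in bases from the transcription start. These belong to 7 of the 9 genes and to *Irgm1*. *Ubd* is the 1 promoter with no mark at all, and *Irf1* carries the most CpG.

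The 25 colon arrays had mean intensities of 171.5 to 353.1 and detected 16024 to 18608 probes. Levels below are log2 of the normalized intensity, on which values near 4.2 lie at the background, and a probe counted as detected where its detection p was under 0.05. The single *Mbd2* probe was not detected on any of the 25 arrays (lowest detection p 0.05662) and so gives no check of the genotype. Of the 8 cDC1 markers, *Xcr1*, *Clec9a*, *Zbtb46*, *Batf3*, *Itgae* and *Irf8* had their highest group means in cDC1s, *Itgax* was as high or higher in macrophages (8.00 in WT macrophages, 7.30 in WT cDC1s) and *Flt3* lay near the background everywhere. The summed level of the list was 13161 to 14955 there and at most 2431 elsewhere. The macrophage list summed to 39073 to 47577 in macrophages and 18757 to 23742 in monocytes. A T cell list, 8 of whose 9 genes had a probe, summed to 442 to 2825 in cDC1s and to at most 640 in the other cells. The ranges of several marker lists differed between genotypes, and the neutrophil list also differed among WT monocyte arrays. It was 4767, 4226 and 2943 on WT arrays 1 to 3, 8507 on array 4 and 6368 on array 5. The neutrophil list summed to 2943 to 8507 in WT against 6881 to 8947 in *Mbd2*-/- monocytes, 1119 to 2341 against 1844 to 5799 in macrophages, and 515 to 639 against 1007 to 2491 in cDC1s. In monocytes the B and plasma cell list lay between 997 and 1456 on WT arrays and between 578 and 947 on *Mbd2*-/- arrays, and the NK and ILC list between 385 and 591 and between 281 and 356. The monocyte list was 6083 to 7828 and 7111 to 9669 in macrophages, and 730 to 809 and 983 to 1516 in cDC1s. In cDC1s the macrophage list was 2455 to 2626 and 2849 to 5776, the B and plasma cell list 332 to 353 and 393 to 606, and the plasmacytoid dendritic cell list 579 and 426 to 520. The epithelial list ranged from 2366 to 11098 over all arrays and was 10755 on WT cDC1 array 23 against 2366 on array 26. The part of these cells in the genotype values below was not tested. In sorted bulk samples a larger share of a cell type and more RNA per cell cannot be told apart. The table lists the arrays in runs of 6 columns. Monocytes lay in the first run (WT arrays 1 to 3 and *Mbd2*-/- arrays 9 and 10) and the second (WT 4 and 5, *Mbd2*-/- 6 to 8), and macrophages in the third (WT 11 to 13, *Mbd2*-/- 19 and 20) and the fourth (WT 14 and 15, *Mbd2*-/- 16 to 18). WT cDC1 arrays 23 and 26 lay in the first and the second run, and *Mbd2*-/- cDC1 arrays 27, 28 and 30 in the third, the fourth and the fifth. The labels do not say what a run is. In cDC1s run and genotype cannot be told apart, nor can run and cell type between macrophages and monocytes.

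*Ubd* showed the widest separation of the genotypes. In WT monocytes its level was 5.15, 5.13, 4.92, 6.04 and 5.62 on arrays 1 to 5. In *Mbd2*-/- monocytes it was 6.64, 6.97, 7.06, 7.49 and 6.88 on arrays 6 to 10. No array of one genotype reached the other, with the WT maximum on array 4. The means were 5.37 ± 0.45 and 7.01 ± 0.31 (SD, n = 5 each), a log2 difference of 1.64 (SE 0.25), or 3.11-fold. WT macrophages gave 5.07, 4.66, 4.58, 5.79 and 5.16 on arrays 11 to 15, where array 13 was not detected. *Mbd2*-/- macrophages gave 6.83, 6.99, 6.81, 7.15 and 7.18 on arrays 16 to 20. These groups did not overlap either, and the *Mbd2*-/- arrays lay closer together than the WT arrays. The difference was 1.94 (SE 0.25), or 3.84-fold. Among cDC1s, WT arrays 23 and 26 gave 4.40, which was not detected, and 4.96. *Mbd2*-/- arrays 27, 28 and 30 gave 6.59, 7.71 and 6.77. The difference was 2.34 (SE 0.35), which cannot be told apart from a difference between runs, and ranged from 2.03 without array 28 to 2.62 without array 26. Because WT levels lay close to the background, the size of the difference depended on how it was corrected. With no background correction the log2 differences were 0.82 in monocytes, 0.92 in macrophages and 1.09 in cDC1s. The means of the 3 *Mbd2*-/- groups were 7.02 in cDC1s, 7.01 in monocytes and 6.99 in macrophages, all closer to each other than the arrays within a group. The order then ran to WT monocytes, WT macrophages at 5.05 ± 0.48 (SD, n = 5) and WT cDC1s at 4.68 ± 0.40 (SD, n = 2), neighbours whose arrays overlapped.

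**Figure D2:**
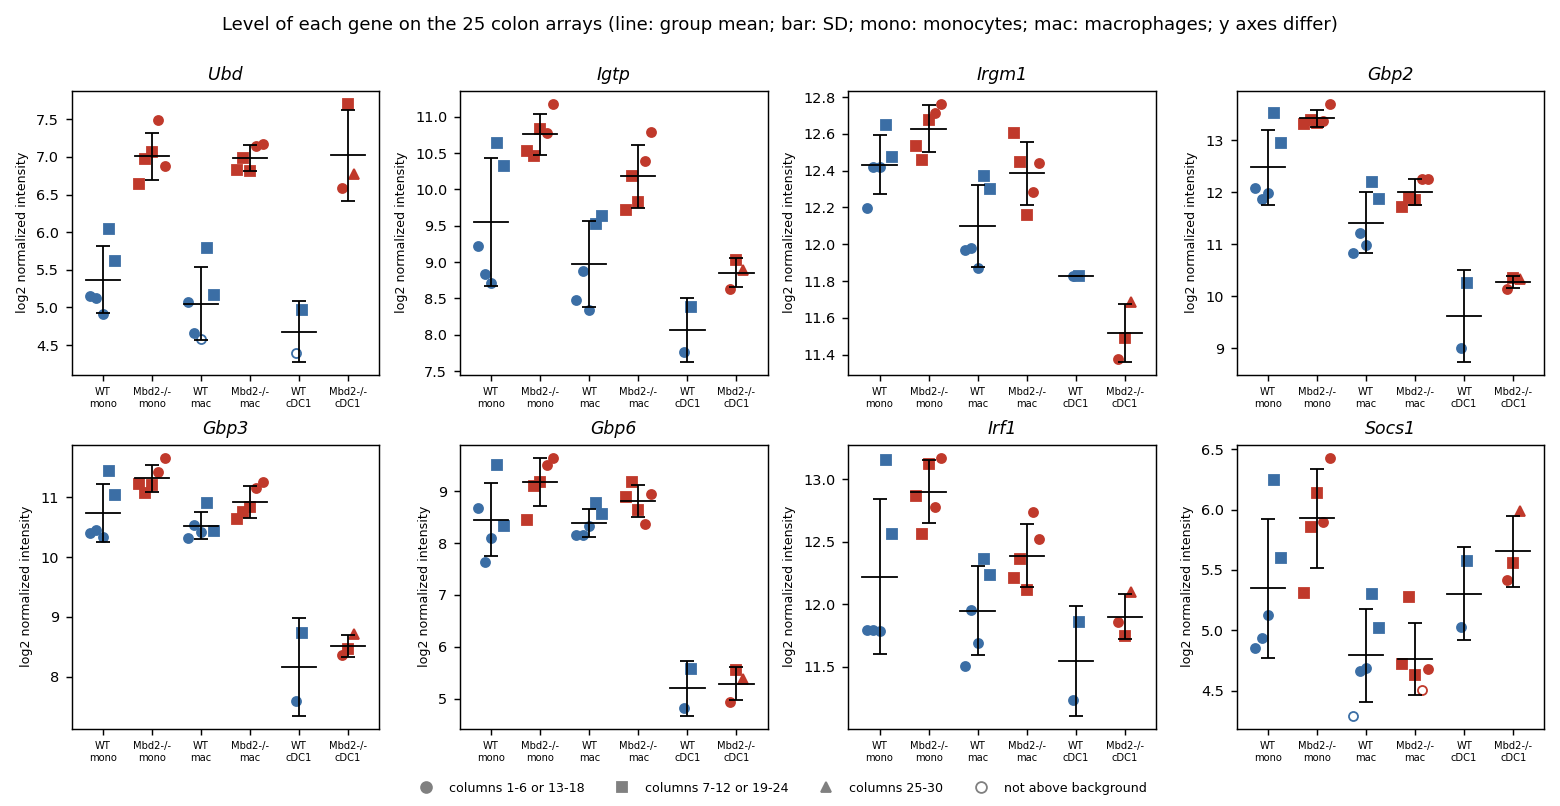
Log2 normalized intensity of each gene on the 25 colon arrays, with 1 point per array, the group mean (line) and its SD (bar), and shapes for the run of table columns. In *Ubd* all *Mbd2*-/- arrays (red) lie above all WT arrays (blue), in *Gbp2*, *Gbp3* and *Gbp6* the cDC1s lie below both other cell types, and in most WT monocyte panels the squares (arrays 4 and 5) lie above the circles.

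Of the immunity-related GTPases, *Igtp* (Irgm3), which acts at vacuole and lipid droplet membranes, was the one that could be followed. WT monocytes gave 9.22, 8.84, 8.71, 10.64 and 10.33 on arrays 1 to 5, and *Mbd2*-/- monocytes 10.53, 10.46, 10.84, 10.77 and 11.18 on arrays 6 to 10. WT arrays 4 and 5 sat among or next to the *Mbd2*-/- arrays, and arrays 1 to 3 far below them. The difference was 1.21 (SE 0.33), or 2.31-fold. WT macrophages gave 8.48, 8.88, 8.35, 9.52 and 9.63, and *Mbd2*-/- macrophages 9.72, 10.19, 9.82, 10.39 and 10.78. Here the groups did not overlap, by a margin of 0.08 between WT array 15 and *Mbd2*-/- array 16, and the difference was again 1.21 (SE 0.33). In cDC1s WT arrays 23 and 26 gave 7.76 and 8.38, and *Mbd2*-/- arrays 27, 28 and 30 gave 8.64, 9.03 and 8.90. The difference was 0.78 (SE 0.48), and it was 0.48 without array 23.

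*Iigp1* encodes a GTPase that disrupts the vacuole of *Toxoplasma*. Its 1 probe was detected on 1 of the 25 arrays, *Mbd2*-/- macrophage array 19 (detection p 0.03953), and its level spanned 4.19 to 4.58, so it was not tested in any comparison. No probe carried the symbol *Irgm*. The 3 probes named *Irgm1*, a regulator that keeps other immunity-related GTPases inactive on the cell's own membranes, are given in its place and are not counted among the 9. The brightest *Irgm1* probe had means of 12.43 ± 0.16 in WT and 12.63 ± 0.13 in *Mbd2*-/- monocytes (SD, n = 5 each). In macrophages the means were 12.10 ± 0.22 and 12.39 ± 0.17 (SD, n = 5 each). In cDC1s WT arrays were at 11.83 on both, and *Mbd2*-/- arrays at 11.38, 11.49 and 11.69, a difference of -0.31 (SE 0.15). *Irgm1* thus had the opposite sign in cDC1s, where all *Mbd2*-/- arrays lay below the WT arrays. A second *Irgm1* probe gave 0.92, 0.53 and 0.08 in monocytes, macrophages and cDC1s.

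Of the guanylate binding proteins, *Gbp2*, which acts at the vacuoles of intracellular pathogens, gave 12.08, 11.86, 11.98, 13.52 and 12.94 in WT monocytes and 13.30, 13.38, 13.33, 13.37 and 13.70 in *Mbd2*-/- monocytes. WT array 4 lay above 4 of the 5 *Mbd2*-/- arrays, and the *Mbd2*-/- arrays spread far less (SD 0.16) than the WT arrays (SD 0.72). The difference was 0.94 (SE 0.30). In WT macrophages the levels were 10.82, 11.21, 10.97, 12.20 and 11.86, and in *Mbd2*-/- macrophages 11.72, 11.88, 11.85, 12.26 and 12.26. The groups overlapped, with a difference of 0.58 (SE 0.30). Among cDC1s WT arrays 23 and 26 differed by more than 1 log2 unit, at 9.00 and 10.25, and the *Mbd2*-/- arrays lay at 10.14, 10.36 and 10.32. The difference of 0.65 (SE 0.43) was 0.03 without array 23 and 1.28 without array 26.

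*Gbp3* ranged from 10.33 to 11.44 in WT and from 11.07 to 11.67 in *Mbd2*-/- monocytes, a difference of 0.58 (SE 0.21). In macrophages the brighter *Gbp3* probe differed by 0.40 (SE 0.21) with overlapping groups, and the other by 0.88 (SE 0.22) with all *Mbd2*-/- arrays above all WT arrays. In cDC1s the probes differed by 0.36 (SE 0.31) and -0.17 (SE 0.32), and so gave no common direction. *Gbp6* is the array's symbol for a gene whose accession RefSeq now names *Gbp7*. It spanned 7.64 to 9.50 in WT and 8.45 to 9.64 in *Mbd2*-/- monocytes, a difference of 0.72 (SE 0.28). Its difference was 0.41 (SE 0.28) in macrophages and 0.09 (SE 0.40) in cDC1s. Without array 23 the cDC1 differences turned to -0.22 for *Gbp3* and -0.29 for *Gbp6*. That of *Gbp6* was -0.04 without array 28.

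*Irf1*, the factor that drives later genes of the response, gave 11.80, 11.80, 11.79, 13.16 and 12.56 in WT monocytes and 12.87, 12.56, 13.12, 12.78 and 13.17 in *Mbd2*-/- monocytes. WT arrays 1 to 3 lay nearly level and array 4 lay above 4 of the 5 *Mbd2*-/- arrays. The differences were 0.68 (SE 0.23) in monocytes, 0.44 (SE 0.23) in macrophages and 0.35 (SE 0.34) in cDC1s. *Irf1* had 5 probes. In cDC1s the next brightest gave 0.75 (SE 0.36), and 3 dim probes gave -0.31, -0.65 and -0.59, with SEs of 0.50 to 0.79. *Socs1*, the inhibitor of the pathway, was low in all cells. Its levels ran from 4.85 to 6.24 in WT and 5.31 to 6.43 in *Mbd2*-/- monocytes, a difference of 0.58 (SE 0.25). In macrophages the means of 4.79 ± 0.38 and 4.77 ± 0.30 (SD, n = 5 each) differed by -0.03 (SE 0.25), and 1 array of each genotype was not detected. In cDC1s the difference was 0.35 (SE 0.36). The macrophage value of *Socs1* changed sign without array 14, 15, 18 or 19, up to 0.10 without array 14. Median scaling between arrays, which lowered the median of all probes in cDC1s to -0.37, turned the cDC1 values to -0.10 for *Socs1*, -0.0031 for *Irf1*, and -0.28 for *Gbp3* and for *Gbp6*.

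As a description of the contrast on which they were picked, *Ubd* alone of the 7 genes passed the limits of an adjusted p under 0.05 and a log2 change of at least 1 in monocytes, where 0.35% of all 11992 genes tested were called higher. In macrophages *Ubd* and *Igtp* passed, with 1.61% of 12515 genes called higher. In cDC1s *Ubd* passed, with 0.958% of 13051 genes called higher. All *Mbd2*-/- arrays lay above all WT arrays for 1 gene in monocytes, 2 in macrophages and 2 in cDC1s, where 1.94%, 1.87% and 18.1% of all genes did so. The share in cDC1s rests on 2 WT and 3 *Mbd2*-/- arrays that lay in different runs, and why it was high was not tested. These counts describe genes picked on the same contrast, and nothing is read from them. The median difference of the 7 genes was 0.72 in monocytes (range 0.58 to 1.64), 0.44 in macrophages (-0.03 to 1.94) and 0.36 in cDC1s (0.09 to 2.34), beside medians over all tested probes of -0.02, -0.07 and 0.03. The median in cDC1s was 0.04 without array 23 and 0.93 without array 26. Without WT array 4, 5 of the 7 genes passed the call in monocytes, and without array 5, 2 did. In macrophages 1 gene passed when array 11, 12, 13, 19 or 20 was left out.

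The monocyte and macrophage differences were not even across the runs of columns. Within the first run, WT monocyte arrays 1 to 3 against *Mbd2*-/- arrays 9 and 10, the 7 genes differed by 1.15 to 2.12 (median 1.43) and in all 7 the genotypes did not overlap, as in 14.68% of all genes. Within the second run, WT arrays 4 and 5 against *Mbd2*-/- arrays 6 to 8, the median was -0.0045 (range -0.15 to 1.07), and *Ubd* was the 1 gene without overlap, as in 11.92% of all genes. In macrophages the third run gave a median of 0.91 (range 0.05 to 2.39), and the fourth a median of 0.06 (range -0.28 to 1.40). There 6 of the 7 genes had no overlap in the third run, as in 12.15% of all genes. In the fourth, 2 had none, *Ubd* and *Igtp*, as in 13.18% of all genes. The medians over all genes were between -0.15 and -0.02 in the 4 runs. *Ubd* kept its sign in each of them, with differences of 2.12, 1.07, 2.39 and 1.40. *Igtp* gave 2.05, 0.13, 2.02 and 0.33, and *Gbp2* 1.56, 0.11, 1.26 and -0.21. Levels of the WT arrays differed between the runs. WT monocyte arrays 4 and 5 exceeded arrays 1 to 3 by 1.56 in *Igtp*, 1.26 in *Gbp2*, 1.06 in *Irf1* and 0.76 in *Ubd*. WT macrophage arrays 14 and 15 exceeded arrays 11 to 13 by 1.01 in *Igtp*, 1.03 in *Gbp2*, 0.58 in *Irf1* and 0.70 in *Ubd*. Whether day, mice or chip moved with the run was not tested.

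**Figure D3:**
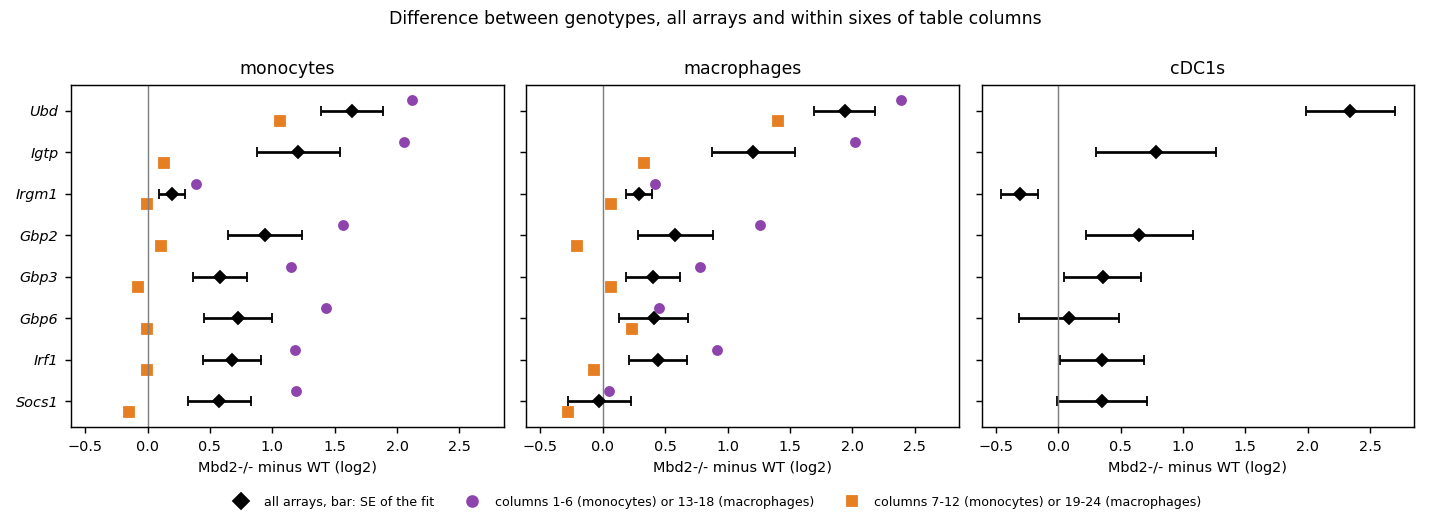
Log2 difference of *Mbd2*-/- minus WT for each gene in monocytes, macrophages and cDC1s, over all arrays (black, bar SE of the fit) and within each run of table columns (purple and orange). The orange points of the second run lie near 0 for all genes but *Ubd*, and *Ubd* lies above 1 throughout, from 1.07 to 2.39.

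To ask how the cell types differed, both genotypes were averaged within each cell type and tested with limma and Benjamini-Hochberg adjustment over all probes. cDC1s had the lowest levels of the GTPases. *Gbp6* (*Gbp7* in RefSeq) differed by -3.35 in cDC1s against macrophages (SE 0.24, limma adjusted p = 1.249e-10, 10.2-fold lower) and by -3.57 against monocytes (SE 0.24, adjusted p = 3.941e-11). Its other probe gave -1.98 and -2.19. The *Gbp6* means in cDC1s, 5.25 and 4.62 by these probes, lay close to the background, which limits the size of the difference. Under other settings the brighter probe ranged from -3.65 to -2.06 against macrophages. The values for *Gbp3* were -2.39 against macrophages (SE 0.19, adjusted p = 5.263e-10) and -2.69 against monocytes (adjusted p = 6.579e-11). *Gbp2* differed by -1.75 (SE 0.26, adjusted p = 7.383e-06) and by -3.00 (adjusted p = 2.405e-09). The other tested *Gbp2* probe, near the background in cDC1s at a mean of 4.36, was not called. It gave -0.13 (adjusted p = 0.5659) and -0.92 (adjusted p = 0.0001951). By the brightest probes, no cDC1 array reached a macrophage or monocyte array in these 3 genes. The share of all genes with no such overlap was not taken. *Igtp* differed by -1.11 (SE 0.29, adjusted p = 0.002935) and by -1.69 (adjusted p = 4.551e-05), and the first of these was -0.96, short of the limit of 1, without array 23. These 4 genes were called lower in cDC1s than in macrophages, where 9.2% of 13267 genes were called lower, and lower than in monocytes, where 9.46% of 12897 genes were. The medians of the 7 genes were -1.11 and -1.69, beside -0.01 over all tested probes in both comparisons.

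WT cDC1s shared runs with WT monocytes, and *Mbd2*-/- cDC1s with *Mbd2*-/- macrophages, which gave values within a run over 1 cDC1 array each, a comparison chosen after the data were seen. *Gbp6* gave -3.31 and -3.34 against monocytes in the first and the second run, and -3.71 and -3.34 against macrophages in the third and the fourth. The values in the same order were -2.82, -2.51, -2.85 and -2.27 for *Gbp3*, -2.97, -2.98, -2.12 and -1.46 for *Gbp2*, and -1.16, -2.10, -1.95 and -0.88 for *Igtp*. Each of these cDC1 arrays lay below all the arrays it was set against. These were few arrays each time, and the share of all genes for which this held was not taken. *Ubd* gave -0.67, -0.86, -0.58 and 0.83, with no common sign.

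Against macrophages, the brightest probes of the guanylate binding proteins gave like values in each genotype alone. *Gbp6* in cDC1s against macrophages gave -3.19 in WT and -3.51 in *Mbd2*-/- cells, *Gbp3* -2.37 and -2.41, and *Gbp2* -1.79 and -1.72. The other *Gbp6* probe gave -1.94 and -2.02, but the other *Gbp3* probe -1.84 and -2.89. The other tested *Gbp2* probe gave -0.03 and -0.24. Against monocytes the brightest probes gave -3.25 and -3.89 for *Gbp6*, -2.58 and -2.80 for *Gbp3*, and -2.85 and -3.14 for *Gbp2*. There the other probes gave -1.75 and -2.63 for *Gbp6*, -2.18 and -3.10 for *Gbp3*, and -0.52 and -1.32 for *Gbp2*. Macrophages differed less from monocytes. *Gbp2* differed by -1.25 in macrophages (SE 0.21, limma adjusted p = 6.315e-05) and was the 1 gene called, where 2.55% of 12136 genes were called lower. Its other tested probe gave -0.79 (adjusted p = 0.0001755), short of the limit of 1. *Socs1* differed by -0.86 in macrophages against monocytes (adjusted p = 0.0005035), short of the limit of 1, and was higher in cDC1s than in macrophages by 0.70 (adjusted p = 0.01048). *Igtp* and *Irf1* differed by -0.57 and -0.39 between macrophages and monocytes (adjusted p = 0.05868 and 0.06425), and *Gbp3*, *Gbp6* and *Ubd* by -0.30, -0.22 and -0.17 (adjusted p = 0.1237, 0.4108 and 0.4825).

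*Ubd* passed no test between cell types. Its differences, with both genotypes averaged, were -0.17 in cDC1s against macrophages (SE 0.22, limma adjusted p = 0.5282) and -0.34 against monocytes (SE 0.22, adjusted p = 0.1946). *Irf1* in cDC1s against monocytes gave -0.84 (adjusted p = 0.001505) by its brightest probe and -1.36 (adjusted p = 1.587e-05) by the next, which was called. Against macrophages its brightest probe gave -0.44 (adjusted p = 0.07188), whereas 2 dim probes were higher in cDC1s by 1.24 and 1.35 (adjusted p = 0.03315 and 0.02208), so the *Irf1* probes disagreed in direction. *Irgm1* in cDC1s gave -0.57 against macrophages and -0.86 against monocytes (adjusted p = 1.684e-05 and 4.844e-08). The T cell list in cDC1s and the macrophage list in monocytes differed between the cell types as given above, and their part in these values was not tested.

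**Figure D4:**
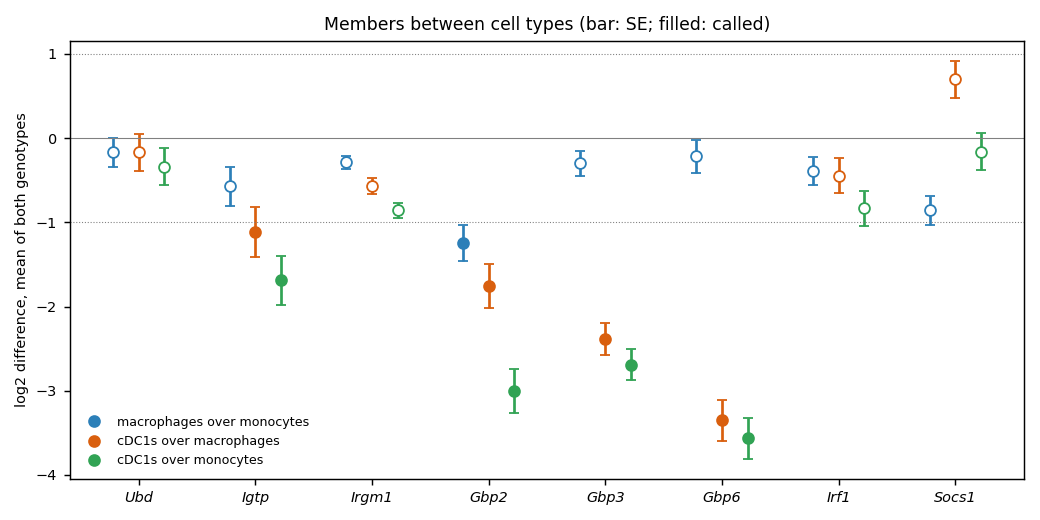
Log2 difference between cell types for each gene, as the mean of both genotypes with its SE, filled where called at an adjusted p under 0.05 and a log2 difference of at least 1 (dotted lines). *Gbp2*, *Gbp3*, *Gbp6* and *Igtp* lie below -1 in both cDC1 comparisons, while *Ubd* stays between -0.34 and -0.17.

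The rest of the pathway was read from 63 listed genes, of which 56 had a probe. In monocytes 9 of the 52 tested rose in *Mbd2*-/- cells at an adjusted p under 0.05 and 43 passed in neither direction, where 1.28% of all genes rose and 1.64% fell. In macrophages 7 of 51 rose and 2 fell, against 4.17% and 4.68% of all genes. In cDC1s 1 of 51 rose and 3 fell, against 5.81% and 5.04% of all genes. The medians of the listed genes were 0.38, 0.28 and 0.13. The list holds known targets of the same pathway as the 9 genes and was written with results of these arrays known. The monocyte count depended on single arrays, from 1 gene without array 2, 3 or 10 to 20 genes without array 4, and it was 2 with the run of columns as a block. The macrophage total of 9 ranged from 3 without array 12 to 13 without array 15, and the cDC1 total of 4 was 2 without array 23 and 9 without array 26.

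At the top of the pathway, *Ifng* differed by 0.02 in monocytes, 0.36 in macrophages and -0.65 in cDC1s (limma adjusted p = 0.9865, 0.5134 and 0.4061). The receptor chain *Ifngr1* differed by -0.11, 0.48 and -1.18 (adjusted p = 0.9224, 0.4078 and 0.1489), and *Ifngr2* by 0.17, 0.12 and -0.01. The kinase *Jak1* gave -0.18, -0.18 and -0.09 (adjusted p = 0.725, 0.5944 and 0.8724), and *Jak2* 0.02 in monocytes and 0.26 in macrophages (adjusted p = 0.9709 and 0.2657). *Stat3*, which serves other cytokines, fell by 0.74 in macrophages (limma adjusted p = 0.03987) and by 0.90 and 0.74 within the third and the fourth run, and passed in 4 of the 10 fits with 1 array left out.

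Among the effectors, *Ido1*, which degrades tryptophan, moved most. WT monocytes gave 5.94, 4.93, 4.94, 7.15 and 6.70 and *Mbd2*-/- monocytes 8.13, 7.62, 7.65, 8.58 and 8.70, with no overlap. It rose by 2.20 in monocytes (SE 0.40, limma adjusted p = 0.004047) and by 2.52 in macrophages (SE 0.40, adjusted p = 0.001267), and passed in all 10 fits with 1 array left out in each cell type. Within the 4 runs it differed by 3.37, 0.88, 3.38 and 1.71. *Tap1*, the peptide transporter of antigen presentation, rose by 0.89 in monocytes (adjusted p = 0.0231) and by 0.82 in macrophages (adjusted p = 0.02348), and passed in 6 and 8 of the 10 such fits. Its differences within the 4 runs were 1.21, 0.45, 1.16 and 0.48. The immunoproteasome subunits *Psmb9* and *Psmb10* rose by 0.62 and 0.60 in monocytes (adjusted p = 0.02338 and 0.04789), and passed in 4 and 2 of 10. *Psmb9* differed by 1.06 in the first run and 0.13 in the second, and *Psmb10* by 0.91 and 0.19. The transcription factor *Batf2* rose by 1.55 (adjusted p = 0.0321) and the immunity-related GTPase *Irgb10* by 1.57 (adjusted p = 0.03579) in monocytes, in 4 and 2 of the 10 fits. In the second run *Batf2* and *Irgb10* differed by 0.32 and 0.55, and in the first by 2.51 and 2.34. *Serpina3g*, a protease inhibitor, rose by 1.52 in macrophages (adjusted p = 0.02629) and passed in 5 of 10 fits. It differed by 2.31 in the third run and 0.54 in the fourth. *Acod1*, the itaconate enzyme, gave 1.098 in macrophages by its brighter probe (adjusted p = 0.07592), while its other probe passed. The brighter probe differed by 2.03 in the third run and 0.0066 in the fourth.

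By list, 6 of 18 effectors rose in monocytes and 5 of 17 in macrophages, and 1 of the 6 other immunity-related GTPases rose in each, where 1.28% and 4.17% of all genes rose. Another 1 of these 6 GTPases fell in macrophages, where 4.68% of all genes fell. The monocyte counts carry the same dependence on single arrays and runs as the total. The macrophage counts carry that on single arrays, and the effectors named above differed less within the fourth run than the third. The 3 other guanylate binding proteins and the 2 chemokines tested had list medians of 1.32 and 1.58 in monocytes and 0.78 and 1.53 in macrophages, short of the threshold gene by gene. In cDC1s 3 of the 51 genes tested fell, where 5.04% of all genes fell, so no theme is read from them. *Ptpn2*, a phosphatase that acts on JAK1, gave 9.13 and 7.49 on WT arrays 23 and 26 and 7.12, 6.90 and 6.68 on *Mbd2*-/- arrays 27, 28 and 30. It fell by 1.41 (SE 0.30, limma adjusted p = 0.007259), but by 0.60, not past the threshold, without array 23. *Jak2* fell by 0.95 (adjusted p = 0.009752) and did not pass the adjusted p without array 26 (-0.71). *Socs3* fell by 0.43 (adjusted p = 0.0267) and did not pass without array 23 or 30. Array 23 had the highest T cell and epithelial sums of the cDC1 arrays, 2825 and 10755, against 684 and 2366 on array 26, and their part in these values was not tested. Run and genotype cannot be told apart here either. *Psmb10* rose in cDC1s by 1 of its probes, with 0.72 by the brighter (adjusted p = 0.05207).

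**Figure D5:**
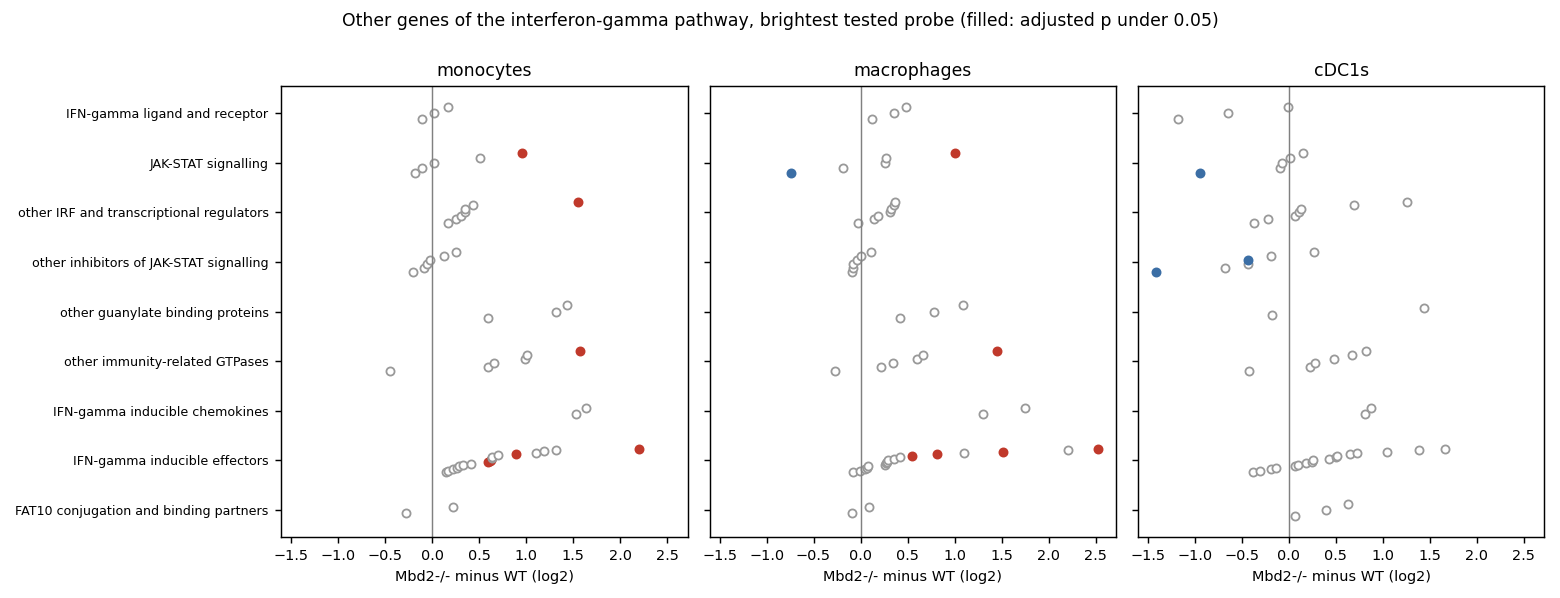
Log2 difference of *Mbd2*-/- minus WT for the other genes of the pathway in each cell type, with 1 point per gene by its brightest tested probe, grouped by role and filled where its adjusted p was under 0.05. The filled points lie right of 0 in monocytes, on both sides in macrophages and left of 0 in cDC1s.

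Between cell types, 5 of the 6 other immunity-related GTPases were lower in cDC1s than in monocytes at a limma adjusted p under 0.05, and 4 of them by at least 1 log2 unit (list median -1.55). The same held at that adjusted p for 2 of the 3 other guanylate binding proteins (median -1.94), where 28.8% of all genes were lower. Against macrophages 5 of 6 and 2 of 3 were lower, with medians of -1.08 and -0.98, where 29.4% of all genes were lower.

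The levels of the 7 genes were closely related across monocyte arrays and less so elsewhere. Over the 10 monocyte arrays the 21 pairs had Pearson correlations from 0.74 to 0.98 (median 0.87), over the 10 macrophage arrays from 0.10 to 0.96 (median 0.70), and over all 25 arrays from 0.03 to 0.96 (median 0.65). The lowest values in macrophages were those of *Socs1* with *Ubd* (0.10) and *Gbp3* (0.12), and over 25 arrays those of *Socs1* with *Gbp6* (0.03) and *Gbp3* (0.07) and of *Ubd* with *Gbp6* (0.21) and *Gbp3* (0.27). The arrays share genotype, cell type and run of columns, which also set these values. The mean standardized level of the 7 genes was -0.47 to -0.31 on WT monocyte arrays 1 to 3, 1.09 and 0.44 on arrays 4 and 5, and 0.71 to 1.40 on the *Mbd2*-/- monocyte arrays. Among 14052 other genes, those most like that mean over the 25 arrays were *Ifi47* (r = 0.97), LOC100047856 (0.96), *Batf2* (0.95), *Iigp2* (0.95), 1200009I06Rik (0.95), *Cd40* (0.93), *Irgb10* (0.92) and *Irg1* (0.92), the array's name for *Acod1*. Within monocytes *Upp1* (0.99), *Ifi47* (0.99), A630077B13Rik (0.99), LOC100047856 (0.99) and *Mlkl* (0.99) came closest. Within macrophages these were *Gbp1* (0.97), *Serpina3g* (0.97), *Serpina3f* (0.96), A630077B13Rik (0.96) and *Samhd1* (0.96).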

How the data were processed

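Sorted colon cells were hybridised to Illumina MouseWG-6 BeadChips, read in 1 colour. The authors deposited intensities as the mean bead brightness of each probe, with no background subtraction and no normalization per the file headers. The deposited detection p-value compares a probe with the negative controls of its array. The labels name lumi and limma, with no version. The deposited table holds 3 signal columns of no sample, which were not used. The members and gene lists were chosen with earlier results of these data known.

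Background correction used normexp on the 936 negative controls (offset 16). Quantile normalization over the 25 colon arrays and a log2 step followed, in R 4.3.3 with limma 3.58.1 and the package data.table (version 1.17.8). The T cell arrays entered a separate normalization of all 27. One limma model was fitted over 6 groups, and p-values, two-sided, were adjusted by Benjamini-Hochberg within a comparison over all probes. A probe was tested where detected at p under 0.05 on at least 5 arrays (2 for cDC1s) and called at an adjusted p under 0.05 and a log2 change of at least 1. Of different probes of a gene, the brightest tested one is given unless stated. Of the pathway list, the text names up to 6 genes per comparison with the smallest p below the limit, and *Ifng*, *Ifngr1*, *Ifngr2*, *Jak1* and *Jak2* always. One further gene of that rule is not reported here. Likeness is the Pearson correlation with the mean standardized level of the members. The fit was tested on simulated data. Alternatives were the background correction, the scaling, the filter, the groups fitted, array weights, blocks and thresholds, and each array was left out in turn. The number of arrays limits the precision.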

Additional observations from a re-analysis of the deposited data

Results flagged for a closer look

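*Gbp2* on *Mbd2*-/- monocyte array 10 was at a log2 level of 13.7004, apart from the other 4 arrays of its group at 13.303 to 13.384. *Socs1* on *Mbd2*-/- macrophage array 17 was at 5.2776, with the others at 4.505 to 4.7262. These were 2 of 32 groups of 5 arrays examined for a single distant array, and chance marks about 1 group in 20.

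The difference between genotypes of *Ptpn2* was lower in cDC1s than in monocytes by -1.6586 (SE 0.3623, limma interaction, adjusted p = 0.02479) and than in macrophages by -1.414 (adjusted p = 0.02062). That of *Jak2* was lower in cDC1s than in macrophages by -1.2116 (SE 0.2577, limma interaction, adjusted p = 0.009394). Both rest on 2 WT cDC1 arrays in other runs of columns than the *Mbd2*-/- arrays, and the *Ptpn2* difference in cDC1s was -0.60 without array 23.

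In splenic CD4 T cells taken 6 weeks after a T cell transfer, with 1 WT array and 1 *Mbd2*-/- array and hence no test, 7 of the members and *Irgm1* were detected on both arrays. The lower of the 2 log2 levels was 10.5463 for *Gbp2*, 9.1679 for *Gbp3*, 8.1389 for *Gbp6*, 11.2217 for *Igtp*, 11.9464 for *Irf1*, 12.0491 for *Irgm1*, 5.5365 for *Socs1* and 5.308 for *Ubd*. *Igtp*, at 11.22 in WT and 11.48 in *Mbd2*-/- cells, lay above each of the 25 colon arrays, whose highest value in the joint normalization was 11.13. *Ubd* was at 5.84 in WT and 5.31 in *Mbd2*-/- T cells.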

How the results depend on the processing

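Of 162 counts and medians recomputed under another setting 126 stayed within 1.5 times the reported count or within 1 SD, 34 moved and 2 reversed. With 1 array left out in turn, the members called ranged from 1 to 5 in monocytes, 1 to 2 in macrophages and 1 to 1 in cDC1s. Their median ranged from 0.5773 to 0.985, 0.3489 to 0.5454 and 0.0396 to 0.9337. The pathway genes past the threshold ranged from 1 to 20, 3 to 13 and 2 to 9, and the members that differed between cell types from 1 to 2 (macrophages against monocytes), 3 to 5 (cDC1s against macrophages) and 5 to 5 (cDC1s against monocytes), against reported counts of 1, 5 and 5 over any probe. With no background correction the members called were 0 in monocytes and 1 in macrophages, and 3 differed between cDC1s and macrophages. Median scaling moved the median of all probes to -0.26 in monocytes and -0.37 in cDC1s. It left 1, 3 and 2 pathway genes in monocytes, macrophages and cDC1s and 1 member called in macrophages, and turned the members' median in cDC1s to -0.0031. Cyclic loess called 2 members in monocytes. Without the filter 1 member was called in macrophages, and 1 and 3 pathway genes passed in monocytes and macrophages. With each cell type fitted alone these were 3 in monocytes, 1 in macrophages and 0 in cDC1s, and the members called were 1 in macrophages and 0 in cDC1s. Array weights called 3 members in monocytes and 1 in macrophages, and passed 21 pathway genes in monocytes and 2 in cDC1s. With the run of columns as a block 2 pathway genes passed in monocytes. At an adjusted p under 0.01, 1, 2 and 2 pathway genes passed and 1 member was called in macrophages. Without a minimum fold, 3 members differed between macrophages and monocytes. Chosen after the data were seen, the limma fit within the first run called 7 members in monocytes and 27 pathway genes, and within the second 0 and 0 with a members' median of -0.0044. The third run gave 5 members in macrophages and 27 pathway genes, and the fourth 1 and 1. The share of all genes called within a run was not taken, and the members were picked on the genotype contrast. Nothing is read from these counts within runs. The cause of these shifts was not tested.

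Label numbers that differ by 10 between cell types, used as a random block, moved no count by over 1.5 times. No paired analysis was possible because no replicate number is shared between genotypes. The block of column runs could not be fitted for the cDC1 genotypes or between cell types. Signal over background limits *Ubd*, *Socs1*, *Iigp1* and, in cDC1s, *Gbp6*, and the cDC1 comparison rests on 2 WT arrays.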
